A study of Mus musculus with 53 samples.

Results

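Fatty acid oxidation in the liver was followed here through 43 genes, among them Ppara and many of the enzymes whose genes it activates, out of 36410 genes listed in all 3 count tables of the study. The members were taken by symbol for their function and fall into 7 roles: the regulator Ppara itself, 5 genes of omega oxidation, 13 peroxisomal genes, 6 genes of fatty acid activation and mitochondrial entry, 14 genes of mitochondrial beta-oxidation, the ketogenic enzyme Bdh1, and 3 other PPAR-alpha targets. All 43 were found in each table by their Ensembl identifier. They were chosen with earlier results of these data known. RNA was sequenced from 53 whole livers of male C57BL/6J mice, with 1 library per liver, in 3 experiments on Bmp8b, which encodes a BMP-family signalling protein released by cells. Labels gave wild-type littermates and livers labelled Bmp8b knockout, and no control group of unchallenged knockout livers was among the groups compared. In the diet experiment, 7 livers labelled knockout and 7 wild-type livers came from mice kept 32 weeks on a Western diet, and 9 wild-type livers from mice kept as long on a low-fat diet, all starting at an age of 9 weeks. In the toxin experiment, 6 livers labelled knockout and 4 wild-type livers were taken 3 days after carbon tetrachloride (CCl4, a toxin that hepatocytes activate) was injected into the peritoneum with olive oil at a 1:1 ratio and 2 ul per g, and 6 wild-type livers 3 days after olive oil alone. In the surgery experiment, 4 livers labelled knockout and 5 wild-type livers were taken on day 3 after partial hepatectomy (surgery that takes out some liver lobes), and 5 wild-type livers on day 0. Mice of the toxin and surgery experiments were 16 weeks old. Wild-type libraries of day 0 and day 3 carry the same mouse numbers, 12 to 16. The labels do not say whether each number is a single mouse sampled on both days, and the main test did not pair them. Each library is counted here as a liver. Nothing in the labels says how the knockout allele was built, and whole liver mixes hepatocytes with the other cells of the organ.

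Libraries held 8963187 to 15196537 counts in the diet experiment, 2661699 to 6364414 after CCl4 or olive oil, and 2450358 to 6914274 in the surgery experiment. Levels are TMM-normalised CPM (counts scaled to library size) within an experiment, and they are not compared between experiments because the tables were normalised separately and that of the surgery was counted on another gene list. Summed levels of 9 hepatocyte markers lay between 66208 and 185710 CPM in the 53 livers. Bmp8b was not lower in livers labelled knockout: it had 1.53 ± 0.523 CPM against 1.07 ± 0.491 CPM in wild-type livers on Western diet (SD, n = 7 each), 1.18 ± 1.04 CPM (n = 6) against 0.464 ± 0.629 CPM (n = 4) after CCl4, and 2.12 ± 0.703 CPM (n = 4) against 0.848 ± 0.408 CPM (n = 5) on day 3. Gene totals do not show which exons were read, so these counts neither check nor contradict a deletion. Among the livers, wild-type liver 34 after CCl4 stood apart: its members lay at a median log2 difference of -2.18 from the olive oil mean, against -0.55 to 0.05 in the other 3 wild-type livers after CCl4. Groups shared the i5 sequencing indexes in the diet experiment and shared them in part in the toxin experiment. Every day 3 library carried index D507 and no day 0 library did, so index and day cannot be told apart there, while the livers labelled knockout and the wild-type livers of day 3 share it. P-values set differences between groups against the spread between these samples.

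Fatty acids enter hepatocytes, are bound to coenzyme A, and are broken down in steps: the longest chains are first shortened in peroxisomes, while most others cross the mitochondrial membrane as carnitine esters and are oxidised to acetyl-CoA, which the liver can pass on as ketone bodies. Omega oxidation, a side path in the endoplasmic reticulum, starts from the other end of the chain with CYP4A hydroxylases and an aldehyde dehydrogenase, and its dicarboxylic products are shortened in peroxisomes. PPAR-alpha is a nuclear receptor that fatty acids bind, and in rodent liver it raises the transcription of genes in all of these compartments, during fasting above all. Its response element is a direct repeat of the motif AGGTCA with 1 base between the copies.

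Promoter windows are printed for Ehhadh and Acaa1b, which differed between labels on day 3 after hepatectomy as given below, and for Acot4, whose window holds a near-repeat of that motif. No window for Cyp4a14 or Cyp4a10 was used here. Each is the 250 bases before the gene's start in RefSeq (GRCm38.p6), on the gene's own strand, with capitals for the motifs found. Acot4, a peroxisomal thioesterase, has chr12:84038129-84038378 on the plus strand, with capitals for CCAAT and for TGACCTTTGGCC, a loose form of the repeat read on the other strand, GGNCA and AGGNCA with 1 base between. Ehhadh, the peroxisomal bifunctional enzyme, has chr16:21787835-21788084 on the minus strand, and Acaa1b, a peroxisomal thiolase, has chr9:119157094-119157343 on the minus strand, and capitals in both mark ATTGG, the reverse complement of CCAAT.
Acot4: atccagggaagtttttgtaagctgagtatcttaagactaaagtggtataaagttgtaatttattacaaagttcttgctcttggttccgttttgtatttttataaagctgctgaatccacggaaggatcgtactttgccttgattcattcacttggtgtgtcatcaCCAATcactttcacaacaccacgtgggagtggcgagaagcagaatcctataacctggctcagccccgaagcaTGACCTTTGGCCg
Ehhadh: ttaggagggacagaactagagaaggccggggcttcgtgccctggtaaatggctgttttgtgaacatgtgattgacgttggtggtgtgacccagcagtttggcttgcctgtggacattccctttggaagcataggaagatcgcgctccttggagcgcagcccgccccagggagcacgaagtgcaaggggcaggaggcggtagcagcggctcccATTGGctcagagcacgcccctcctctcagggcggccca
Acaa1b: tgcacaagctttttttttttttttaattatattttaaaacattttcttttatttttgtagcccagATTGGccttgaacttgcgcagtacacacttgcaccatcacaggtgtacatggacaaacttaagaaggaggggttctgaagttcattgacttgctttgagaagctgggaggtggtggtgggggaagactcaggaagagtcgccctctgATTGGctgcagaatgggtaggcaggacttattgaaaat
RefSeq windows were matched for 34 of the 43 members, and both strands were searched. A member was counted once if any of its windows matched, with 38 windows for the 34. All genes were counted by window, so the shares below are not in the same unit. AGGTCA was found in 4 of the 34 (11.8%; Acadm, Acadvl, Acot4 and Cpt1a), against 4607 of all 32851 windows (14%). The loose repeat was in 1 of 34 (2.94%), against 0.694% of all windows, and the exact repeat of AGGTCA with 1 base between in 0 of 34, against 0.0335%. CCAAT, a common promoter element, was in 19 of 34 (55.9%), against 33.8% of all windows. These matches describe letters in a short window and say nothing of binding.

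On day 3 after partial hepatectomy, livers labelled knockout had more RNA of 3 of the 5 omega-oxidation members and 2 of the 12 tested peroxisomal members than wild-type livers of the same day. Of 40 members tested, 5 were higher and 0 lower (12.5%), while 0.154% of all 11026 genes tested were called (0.118% higher, 0.0363% lower). The 5 were the omega hydroxylases Cyp4a14 and Cyp4a10, the fatty aldehyde dehydrogenase Aldh3a2, Acaa1b and Ehhadh. Without regard to a call, 39 of the 40 had a positive log2 fold change, with a median of 0.28, against 50.5% of all genes and a median of 0.0027. Members were chosen with earlier results of these data known, so these shares describe the list and are no test of it against all genes. As in every comparison of whole tissue here, fewer cells of a type and less RNA per cell cannot be told apart.

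Cyp4a14 had 86.4, 112, 253 and 305 CPM in the 4 livers labelled knockout, against 33.8, 14.8, 55.8, 15.2 and 24.0 CPM in the 5 wild-type livers of day 3. The lowest liver labelled knockout lay above the highest wild-type liver, and livers 19 and 20 labelled knockout were the highest of all. The log2 fold change was 2.73 (SE 0.45, edgeR adjusted p = 0.018). Cyp4a10, which makes a related hydroxylase, had 112, 105, 93.3 and 168 CPM in livers labelled knockout, against 60.5, 34.4, 52.2, 28.4 and 57.2 CPM in wild-type livers. Here too the groups did not overlap, with a log2 fold change of 1.37 (SE 0.27, edgeR adjusted p = 0.044). Aldh3a2, which oxidises the fatty aldehydes of this path, had 243, 226, 277 and 237 CPM in livers labelled knockout, against 137, 139, 162, 92.5 and 154 CPM in wild-type livers. Its groups did not overlap and differed by 0.85 on the log2 scale (SE 0.17, edgeR adjusted p = 0.044). The remaining omega members were Cyp4a31 with 27.3 ± 12.8 CPM (SD, n = 4) in livers labelled knockout and 16.4 ± 6.18 CPM (SD, n = 5) in wild-type livers, and Cyp4a32 with 13.3 ± 4.87 CPM and 7.90 ± 2.44 CPM in the same order of groups. Neither passed the test (edgeR adjusted p = 0.48 and 0.58). Reads of Cyp4a10, Cyp4a31 and Cyp4a32 can be hard to place, since the transcripts of Cyp4a10 and Cyp4a32 are 97.2% identical. Those of Cyp4a31 and Cyp4a32 are 96.0% identical. The transcript of Cyp4a14 is less alike, 66.7% identical to that of Cyp4a10 and 75.9% to that of Cyp4a32. How reads of these genes were placed was not tested. The 4 CYP4A members lie together on chromosome 4 (GRCm38), 7.48 to 7.61 Mb from Bmp8b on the same chromosome, and what part that linkage has in their difference was not tested. Aldh3a2, Acaa1b and Ehhadh lie on chromosomes 11, 9 and 16.

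Among peroxisomal members, Ehhadh had 333, 358, 395 and 361 CPM in the livers labelled knockout, against 238, 237, 198, 191 and 296 CPM in wild-type livers of day 3 (log2 fold change 0.64, SE 0.12, edgeR adjusted p = 0.044). Acaa1b, the last step of the peroxisomal cycle, had 457, 368, 499 and 497 CPM, against 270, 296, 304, 232 and 350 CPM (log2 fold change 0.65, SE 0.13, edgeR adjusted p = 0.044). For both genes the groups did not overlap, although for Acaa1b the gap between liver 18 labelled knockout and wild-type liver 16 was narrow. Acaa1b is 89.6% identical to its paralog Acaa1a, whose levels were 129 ± 11.5 CPM (SD, n = 4) and 109 ± 13.5 CPM (SD, n = 5). The isomerase Eci2 came closest without passing, with 161 ± 15.7 CPM in livers labelled knockout and 106 ± 15.7 CPM in wild-type livers (edgeR adjusted p = 0.094). Pex11a, a membrane protein of peroxisome division, had 65.5, 57.2, 55.3 and 60.6 CPM in livers labelled knockout, against 48.3, 44.5, 49.7, 32.8 and 39.1 CPM in wild-type livers, groups that did not overlap but missed the threshold (edgeR adjusted p = 0.196). All 12 peroxisomal members tested had a positive fold change, with a median of 0.42 on the log2 scale.

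None of the 13 mitochondrial beta-oxidation members tested and none of the 6 in activation and entry passed the test, at median log2 fold changes of 0.12 and 0.31; whether these roles differ from the others was not tested. At an unadjusted p under 0.05 edgeR gave 19 of all 40 members, all higher, and 9.08% of all genes. Hadha, the alpha subunit of the trifunctional protein, had 361, 397, 371 and 370 CPM in livers labelled knockout, against 377, 344, 338, 332 and 426 CPM in wild-type livers, and the groups overlapped. For Cpt1a, which forms the carnitine ester at the outer membrane, 338, 327, 426 and 394 CPM stood against 226, 268, 265, 351 and 355 CPM (log2 fold change 0.34, edgeR adjusted p = 0.53). Bdh1, which interconverts the ketone bodies, had 235, 231, 276 and 276 CPM in livers labelled knockout and 186, 245, 170, 183 and 199 CPM in wild-type livers (log2 fold change 0.37, edgeR adjusted p = 0.30). Acot1, a cytosolic thioesterase, had 8.67, 14.7, 9.49 and 17.9 CPM, against 5.97, 4.15, 6.44, 3.68 and 6.57 CPM, and did not pass the test either (log2 fold change 1.25, edgeR adjusted p = 0.17). Vnn1, a pantetheinase that PPAR-alpha activates, had 33.3, 29.3, 42.7 and 34.7 CPM against 18.2, 18.7, 21.5, 19.4 and 27.5 CPM without passing (edgeR adjusted p = 0.18). Fgf21, a fasting hormone, was too low to be tested, with 1.08, 1.13, 5.14 and 3.20 CPM in livers labelled knockout and 0, 0, 0.358, 0.525 and 0 CPM in wild-type livers, where 3 counts amount to 0.779 to 1.16 CPM. Ppara itself had 43.1, 30.1, 38.7 and 44.0 CPM against 42.1, 34.4, 39.3, 32.0 and 25.1 CPM, overlapping sets (log2 fold change 0.17, SE 0.16, edgeR adjusted p = 0.81). In 11 of the 40 members tested, every liver labelled knockout lay above every wild-type liver, against 1.51% of all genes tested, and in 0 every one lay below, against 1.16%. Fgf21, untested, was separated in the same way.

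These 5 calls stood near the threshold. With a liver left out in turn, 5 members stayed called without liver 17 labelled knockout or day 0 liver 12 or 16, 3 without day 0 liver 13 or 14 or wild-type liver 16, 2 without day 0 liver 15, liver 18 labelled knockout or wild-type liver 13, 1 without wild-type liver 12 or 14, and 0 without liver 19 or 20 labelled knockout or wild-type liver 15. Their log2 fold changes stayed between 2.40 and 3.10 for Cyp4a14, 1.16 and 1.49 for Cyp4a10, 0.73 and 0.91 for Aldh3a2, 0.58 and 0.74 for Acaa1b, and 0.58 and 0.74 for Ehhadh, and the highest adjusted p was 0.196. The 9 hepatocyte markers summed to 142590 to 168880 CPM in livers labelled knockout and 145950 to 169560 CPM in wild-type livers, and 8 markers of dividing cells to 123 to 372 CPM and 150 to 340 CPM. In these lists edgeR called 0 of 9 and 0 of 8 markers, with 2 and 0 at an unadjusted p under 0.05. Cholangiocyte markers summed to 115 to 161 CPM in livers labelled knockout and 156 to 280 CPM in wild-type livers, with 0 of 3 tested called, 1 lower at an unadjusted p under 0.05 and a median log2 fold change of -0.39. Stellate cell markers summed to 241 to 770 CPM and 291 to 937 CPM, with 0 of 10 called, 1 lower at an unadjusted p under 0.05 and a median of -0.26. The part of either in the members' differences was not tested. Adipocyte markers, which tell of fat attached to the tissue, had no count in any liver labelled knockout and reached 43.9 CPM in 1 wild-type liver of day 3.

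**Figure D1:**
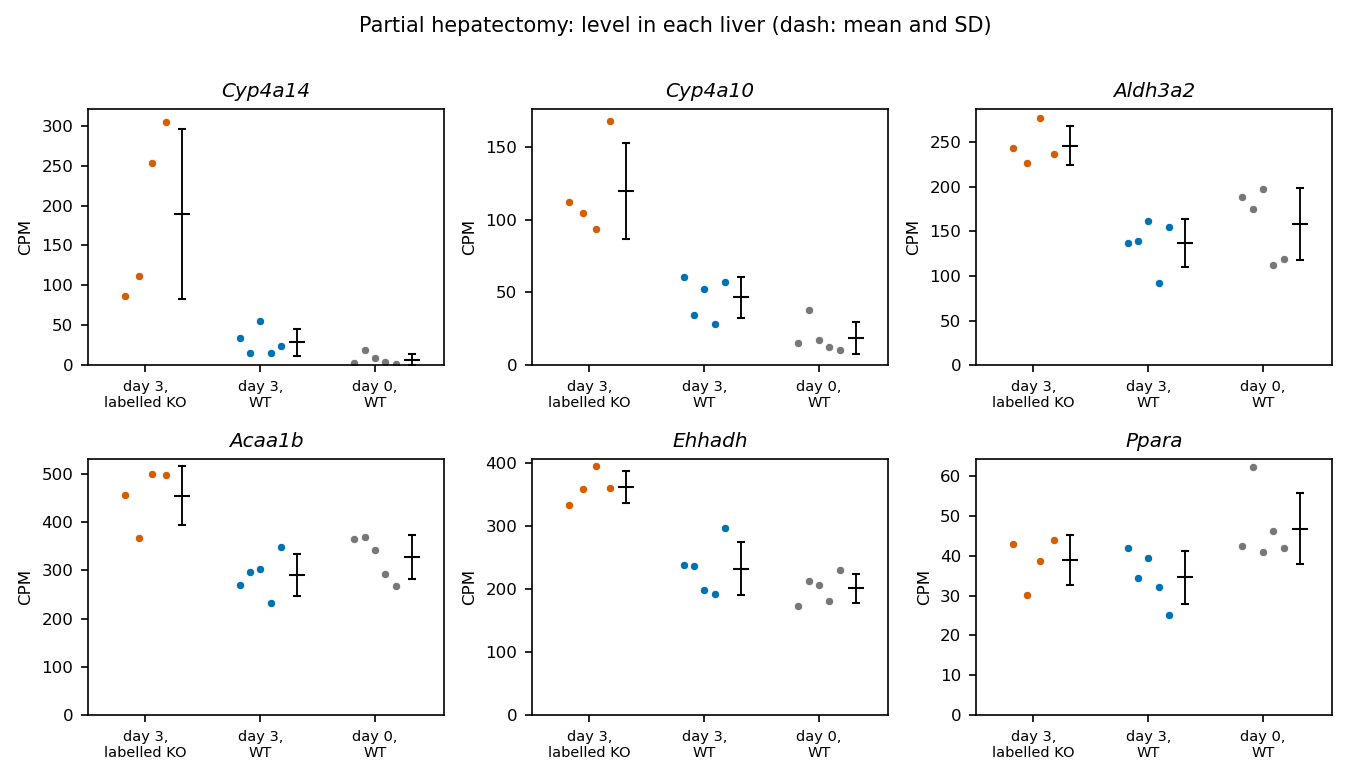
Level in CPM (linear axis from 0) of 6 members in each liver of the surgery experiment, with livers labelled knockout on day 3 at the left, wild-type livers on day 3 in the middle and wild-type livers on day 0 at the right; dashes and bars are the mean and SD of 4, 5 and 5 livers. The labelled-knockout points lie above all wild-type points of day 3 for Cyp4a14, Cyp4a10, Aldh3a2, Acaa1b and Ehhadh and among them for Ppara.

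In wild-type livers, day 3 set against day 0 gave another distribution. Of the 40 members tested, 11 were higher and 5 lower (40.0%), against 17.4% of all genes, 9.87% higher and 7.5% lower. The median log2 fold change of the members was -0.044, and that of all genes -0.0047. Pdk4, a kinase that shuts pyruvate dehydrogenase, had 41.5, 14.5, 13.2, 8.14 and 23.2 CPM on day 3, against 11.04, 1.13, 3.34, 1.31 and 5.09 CPM on day 0 (log2 fold change 2.05, SE 0.51, edgeR adjusted p = 0.0073). Cyp4a14 had 2.39, 19.2, 8.82, 3.93 and 1.18 CPM on day 0, below most of the day 3 values given above (2.04, SE 0.54, edgeR adjusted p = 0.011). Abcd2, a peroxisomal transporter of fatty acyl-CoA, had 15.8, 15.4, 6.44, 8.14 and 11.6 CPM on day 3, against 1.79, 3.95, 3.04, 4.46 and 1.57 CPM on day 0 (1.96, SE 0.40, edgeR adjusted p = 0.0016). Cyp4a31 was higher by 1.76 (SE 0.35), Cyp4a10 by 1.32 (SE 0.28), the carnitine acetyltransferase Crat by 1.23 (SE 0.15), Acot4 by 1.07 (SE 0.23) and Vnn1 by 0.80 (SE 0.20) on the log2 scale, with edgeR adjusted p between 9.5e-06 and 0.0091. For Crat the 2 days did not overlap, with 88.5, 59.3, 73.7, 88.5 and 79.3 CPM on day 3 against 45.6, 35.3, 24.6, 29.1 and 28.6 CPM on day 0. Acadm, the medium-chain dehydrogenase of mitochondria, had 303 ± 24.9 CPM on day 3 and 218 ± 18.0 CPM on day 0 (SD, n = 5 each; log2 fold change 0.48, edgeR adjusted p = 0.00086).

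The 5 members that were lower in wild-type livers on day 3 came from 3 roles. Pex11a fell by 0.51 on the log2 scale (SE 0.13, edgeR adjusted p = 0.0068), and day 0 values of 55.8, 65.0, 74.2, 60.8 and 50.2 CPM lay above every day 3 value. Acsl1, the main hepatic acyl-CoA synthetase, had 576, 545, 631, 604 and 823 CPM on day 3, against 744, 964, 929, 709.2 and 1142 CPM on day 0 (log2 fold change -0.50, SE 0.13, edgeR adjusted p = 0.013), and only day 3 liver 16 reached into the day 0 range. Decr2, a reductase for unsaturated chains in peroxisomes, had 128, 125, 108, 102 and 132 CPM on day 3, against 142, 206, 143, 146 and 167 CPM on day 0 (-0.43, SE 0.11, edgeR adjusted p = 0.0085). Eci1 and Etfdh were also lower, and Hadh and Etfb higher, but these 4 kept their calls in only 9 to 14 of 21 alternatives, and each lost it when single livers of either day were left out. Reads of Etfb cannot be separated from those of Gm45233, which shares 617 exon bases with it on the same strand. Ppara had 42.5, 62.4, 41.1, 46.1 and 41.9 CPM on day 0, and its log2 fold change of -0.43 (SE 0.15) just missed the threshold (edgeR adjusted p = 0.056). All 8 markers of dividing cells rose on day 3, summing to 150 to 340 CPM against 7.91 to 18.9 CPM on day 0, and 6 of 10 stellate cell markers rose (291 to 937 CPM against 149 to 313 CPM). Hepatocyte markers summed to 145950 to 169560 CPM on day 3 against 100270 to 120960 CPM on day 0. Of the 9 tested, 2 were called higher and 2 lower. Of 8 sinusoidal endothelial markers, 4 were called lower and 0 higher. The part of these marker changes in the members' changes was not tested.

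Livers labelled knockout on day 3 set against the same wild-type day 0 livers gave 16 higher and 0 lower of 40 (40.0%), against 12.2% of all genes (7.23% higher, 5% lower). The wild-type comparison shares those day 0 livers. Of the 16 members called here and the 16 called in wild-type livers, 10 were in both: Abcd2, Acadm, Acot4, Crat, Cyp4a10, Cyp4a14, Cyp4a31, Hadh, Pdk4 and Vnn1. The log2 fold change of Cyp4a14 was 4.77 (SE 0.52) in livers labelled knockout and 2.04 in wild-type livers, and those of Cyp4a10 were 2.69 (SE 0.29) and 1.32. Acot1 (1.98, SE 0.34), Ehhadh (0.85, SE 0.12), Aldh3a2 (0.63, SE 0.17), Acaa1b (0.47, SE 0.13) and the mitochondrial Acadl (0.43, SE 0.11) and Decr1 (0.37, SE 0.12) were called against day 0 in livers labelled knockout but did not pass in wild-type livers, with edgeR adjusted p between 6e-05 and 0.040. In the direct comparison of labels on day 3 given above, Ehhadh, Aldh3a2 and Acaa1b passed, and Acot1, Acadl and Decr1 did not. The call of Aldh3a2 was lost without liver 19 labelled knockout (highest adjusted p 0.053), that of Acaa1b without liver 19 or 20 (0.060) and that of Acadl without liver 20 (0.062). Decr1 kept its call in only 13 of 20 alternatives, and lost it without day 0 liver 12, 14, 15 or 16 or liver 17, 18 or 20 labelled knockout.

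After CCl4, 5 of 42 tested members fell and 1 rose (14.3%) in wild-type livers against olive oil, while 20% of all genes were called (11.1% higher, 8.87% lower), so the share of called members was below that of all genes. Of the 42, 34 had a negative log2 fold change, with a median of -0.55, against 46.2% of all genes and a median of 0.054. Without livers 34 and 35, 27 were negative and the median was -0.23. Acaa1b had 69.9, 120, 97.3 and 3.15 CPM in the 4 wild-type livers after CCl4, the last being liver 34, against a range of 366 to 753 CPM (median 527) in the 6 olive oil livers. The 2 groups were far apart, with a log2 fold change of -2.89 (SE 0.79, edgeR adjusted p = 0.017). Aldh3a2 had 73.7, 92.7, 62.4 and 23.7 CPM, against 167 to 312 CPM (median 228) after olive oil (-1.89, SE 0.46, edgeR adjusted p = 0.0093). Acsl1 had 394, 472, 348 and 65.4 CPM, against 723 to 1252 CPM (median 870) (-1.48, SE 0.39, edgeR adjusted p = 0.015). No value after CCl4 reached the olive oil range for these 3 genes. Decr2 (-1.06, SE 0.33, edgeR adjusted p = 0.032) and the short-chain dehydrogenase Acads (-0.71, SE 0.23, edgeR adjusted p = 0.038) were also lower. Their calls were lost without olive oil liver 24 or 27 or CCl4 wild-type liver 7, that of Decr2 also without CCl4 wild-type liver 5, and that of Acads also without CCl4 wild-type liver 34, CCl4 liver 2 labelled knockout or olive oil liver 26 or 28. In 10 of the 42 members tested, every wild-type CCl4 liver lay below every olive oil liver, against 9.02% of all genes tested, and in 1 every one lay above, against 7.91%.

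Acot2, a mitochondrial thioesterase, went the other way, with 9.36, 3.06, 3.15 and 2.42 CPM in wild-type livers after CCl4, against 0 to 1.62 CPM (median 0.78) after olive oil. The groups did not overlap (log2 fold change 2.38, SE 0.72, edgeR adjusted p = 0.028), but 0 to 9 counts lie behind each olive oil value, so the fitted fold depends on the prior count. Acot2 also lost its call without wild-type liver 4 or olive oil liver 24 or 30. Cyp4a14 and Cyp4a10 varied widely among livers: Cyp4a14 had 829.3, 21.6, 9.80 and 11.1 CPM in wild-type livers after CCl4, with liver 4 far above the rest, and Cyp4a10 had 161, 13.3, 5.60 and 6.05 CPM, again with liver 4 the highest. Olive oil livers ranged from 41.1 to 362 CPM for Cyp4a14 and from 48.4 to 190 CPM for Cyp4a10, and neither gene passed the test (edgeR adjusted p = 0.86 and 0.28). Ehhadh had 234, 177, 141 and 33.2 CPM after CCl4 and 186 to 377 CPM after olive oil (-0.92, edgeR adjusted p = 0.19), and Ppara 54.8, 39.3, 38.0 and 7.99 CPM and 29.0 to 95.5 CPM (-0.91, edgeR adjusted p = 0.14).

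Which members passed after CCl4 depended on single livers and on the index. The count of 6 became 12 without CCl4 liver 35 labelled knockout, 12 without wild-type liver 4 and 3 without olive oil liver 24, and 12 with livers 34 and 35 both left out. Shares of all genes called are not given here for these runs or for the fit with the index. With the i5 index in the model, 27 members were lower and 0 higher. In that model the log2 fold changes were -5.73 for Acaa1b, -2.89 for Aldh3a2, -2.33 for Acsl1, -1.60 for Decr2 and -1.11 for Acads, all called, and 1.37 for Acot2, not called (edgeR adjusted p = 0.25). Liver 34 is the only wild-type CCl4 liver with an index that olive oil livers also have (D505). The other 3 carry D503, which no olive oil liver has. The model ties that index to the olive oil livers only through wild-type liver 34 and livers 22 and 35 labelled knockout. Members of livers 34 and 35 lay at median log2 differences of -2.18 and -0.80 from the olive oil mean. The part of these livers in the fit was not tested. No index holds enough livers of both groups for a value of its own. Summed hepatocyte markers were 89091 to 163780 CPM in wild-type livers after CCl4 and 113380 to 150450 CPM after olive oil, with 1 of 9 markers higher and 1 lower. All 8 markers of dividing cells rose, to sums of 27.4 to 757 CPM against 8.13 to 18.1 CPM, and their part in the members' values was not tested.

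**Figure D2:**
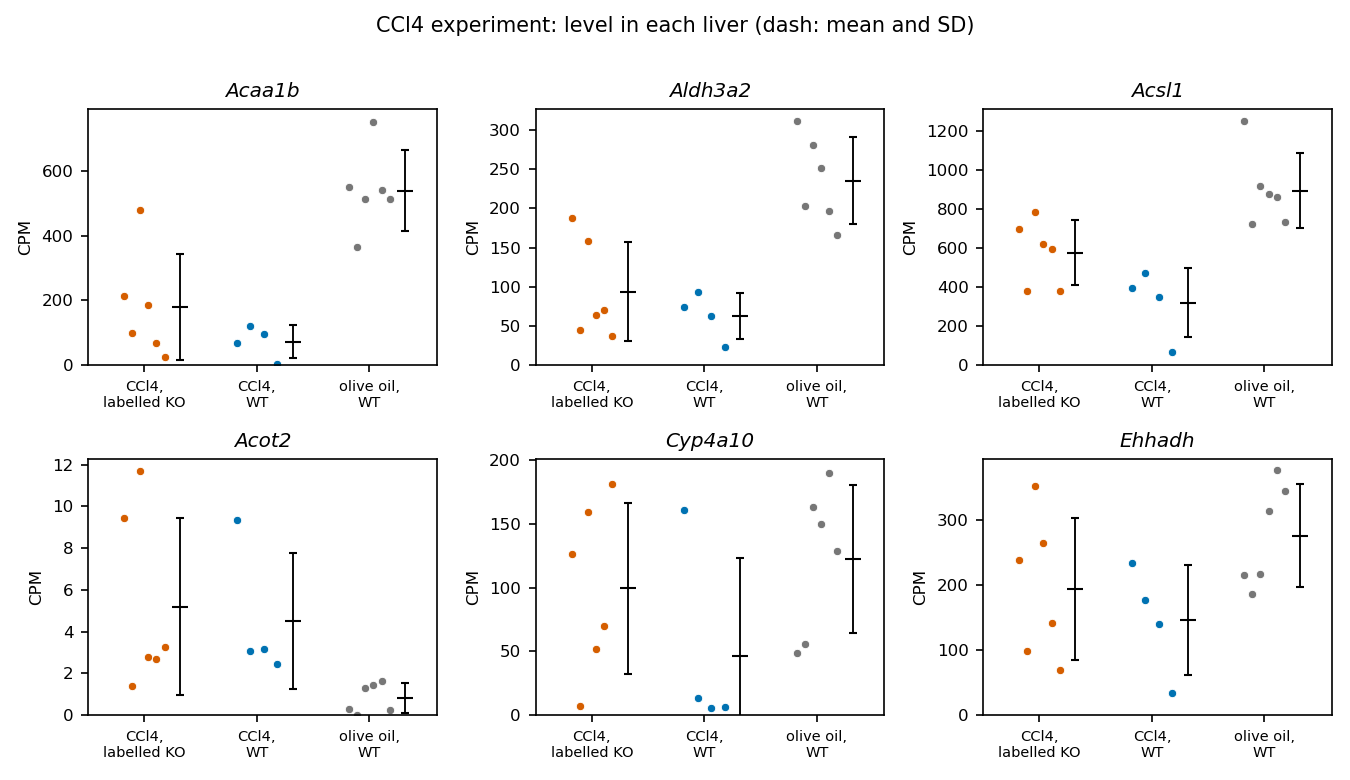
Level in CPM (linear axis from 0) of 6 members in each liver of the toxin experiment, with livers labelled knockout after CCl4 at the left, wild-type livers after CCl4 in the middle and wild-type livers after olive oil at the right; dashes and bars are the mean and SD of 6, 4 and 6 livers, and a bar that would pass below 0 is cut there. The wild-type CCl4 points of Acaa1b, Aldh3a2 and Acsl1 lie below all olive oil points, those of Acot2 above, and those of Cyp4a10 spread from 5.60 to 161 CPM.

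Livers labelled knockout after CCl4 were not told apart from wild-type livers after CCl4: edgeR called 0 of 42 members, against 0.00857% of all genes. DESeq2 and limma voom also called 0. At an unadjusted p under 0.05 edgeR gave 1 member and 6.16% of all genes. Of the 42 log2 fold changes, 40 were positive with a median of 0.41, against 49.1% of all genes and a median of -0.007; without livers 34 and 35, 34 were positive with a median of 0.21. Acaa1b ranged from 26.5 to 480 CPM (median 143) in livers labelled knockout, against 3.15 to 120 CPM in wild-type livers, and no member separated the 2 groups. Against olive oil, 3 of 42 members were called in livers labelled knockout (7.14%, against 9.3% of all genes, 5.91% higher and 3.4% lower): Acot2 (2.605, SE 0.67, edgeR adjusted p = 0.022), Cyp4a31 (2.46, SE 0.65, edgeR adjusted p = 0.024) and Aldh3a2 (-1.32, SE 0.39, edgeR adjusted p = 0.042). The call of Aldh3a2 was lost without liver 8, 12, 22 or 35 labelled knockout, wild-type liver 4 or 7, or any of olive oil livers 24 and 26 to 29. Cyp4a31 ranged from 13.7 to 64.3 CPM (median 48.5) in livers labelled knockout and from 2.15 to 12.4 CPM (median 7.81) after olive oil, without overlap. This count was 1 without CCl4 liver 2 labelled knockout or olive oil liver 24, 26 or 28, and 7 without wild-type liver 34. It was 8 without livers 34 and 35, and 20, all lower, with the i5 index in the model, where Acot2 (edgeR adjusted p = 0.12) and Cyp4a31 (0.083) were not called. The share of all genes called in these runs is not given here.

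Western diet moved members in both directions. In wild-type livers 9 of 43 were higher and 6 lower than on low-fat diet (34.9%), close to the 37.4% of all genes that were called (20.4% higher, 17% lower), and the median log2 fold change was 0.095, against -0.0226 over all genes. Aldh3a2 ranged from 1092 to 1333 CPM (median 1237) on Western diet and from 655 to 1006 CPM (median 718) on low-fat diet (log2 fold change 0.72, SE 0.09, edgeR adjusted p = 3.7e-06). Ehhadh ranged from 707.4 to 924 CPM (median 765) and from 382 to 626 CPM (median 478) (0.63, SE 0.11, edgeR adjusted p = 8.3e-05). Vnn1 ranged from 123 to 176 CPM (median 160) and from 51.7 to 123 CPM (median 83.3) (0.87, SE 0.14, edgeR adjusted p = 4.5e-05). In these 3 genes, and in no other member, every Western diet liver lay above every low-fat liver (4.72% of all genes). Acaa1b, at 1330 to 2114 CPM (median 1709) on Western diet and 652 to 1590 CPM (median 948) on low-fat diet, overlapped in range and was higher by 0.76 (SE 0.16, edgeR adjusted p = 0.00059). Acot2 showed the largest rise, 1.18 (SE 0.30, edgeR adjusted p = 0.0031), at a low level of 4.41 to 12.9 CPM against 2.17 to 8.15 CPM. Pex11a (0.44), Crat (0.41), Hadh (0.25) and the D-bifunctional enzyme Hsd17b4 (0.24) were also higher, although Hadh kept its call in only 19 of 31 alternatives.

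Lower on Western diet in wild-type livers were Acot1 (-0.61, SE 0.20, edgeR adjusted p = 0.017), Acsl1 (-0.42, SE 0.14, edgeR adjusted p = 0.020), the peroxisomal transporter Abcd3 (-0.28, SE 0.10, edgeR adjusted p = 0.039), Eci2, the thiolase Acaa2 and Etfa. Acot1 ranged from 7.18 to 15.4 CPM (median 11.1) on Western diet and from 11.4 to 23.2 CPM (median 16.9) on low-fat diet, and Acsl1 from 637 to 1091 CPM (median 716) and from 930 to 1290 CPM (median 1092), with overlap in both. Acsl1 was not called without Western diet liver 14 or 34, and Abcd3 not without either of those, Western diet liver 17 or 23 or low-fat liver 21, 25 or 26. Eci2 and Acaa2 each kept their calls in only 21 of 31 alternatives, and Etfa in 27 of 31. The CYP4A genes did not pass: Cyp4a14 ranged from 265 to 807 CPM on Western diet and from 261 to 1051 CPM on low-fat diet (edgeR adjusted p = 0.81), and Cyp4a10 from 225 to 480 CPM and from 213 to 700 CPM (0.49). Ppara ranged from 119 to 180 CPM and from 83.3 to 153 CPM (0.20, edgeR adjusted p = 0.22). Cell type markers moved on this diet: 7 of 9 hepatocyte markers fell, to sums of 66208 to 96448 CPM against 100420 to 135680 CPM on low-fat diet, and all 10 macrophage markers rose, to 605 to 1378 CPM against 227 to 566 CPM. Their part in the members' changes was not tested.

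Livers labelled knockout and wild-type livers on Western diet did not differ in any member by edgeR. It called 0 of 43, against 0.0154% of all genes. DESeq2 and limma voom called 0 as well. At an unadjusted p under 0.05 edgeR gave 1 member, Cpt1a (-0.24), and 5.89% of all genes. The median log2 fold change was 0.042, with 31 of 43 positive, against 49.6% of all genes. Aldh3a2 ranged from 1036 to 1440 CPM (median 1230) in livers labelled knockout and from 1092 to 1333 CPM (median 1237) in wild-type livers, and Ehhadh from 637 to 1120 CPM (median 857) and from 707.4 to 924 CPM (median 765). Liver 33 labelled knockout was the highest of its group for Acaa1b (2647 CPM), Ppara (167 CPM) and Cyp4a10 (581 CPM). Against low-fat diet, livers labelled knockout had 10 members higher and 0 lower (23.3%, against 25.2% of all genes, 15.1% higher and 10.2% lower), and 9 of the 10 were also called higher in wild-type livers, with which they share the low-fat group: Acaa1b, Acot2, Aldh3a2, Crat, Ehhadh, Hadh, Hsd17b4, Pex11a and Vnn1. The other was Decr1, a mitochondrial reductase (0.28, edgeR adjusted p = 0.012).

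**Figure D3:**
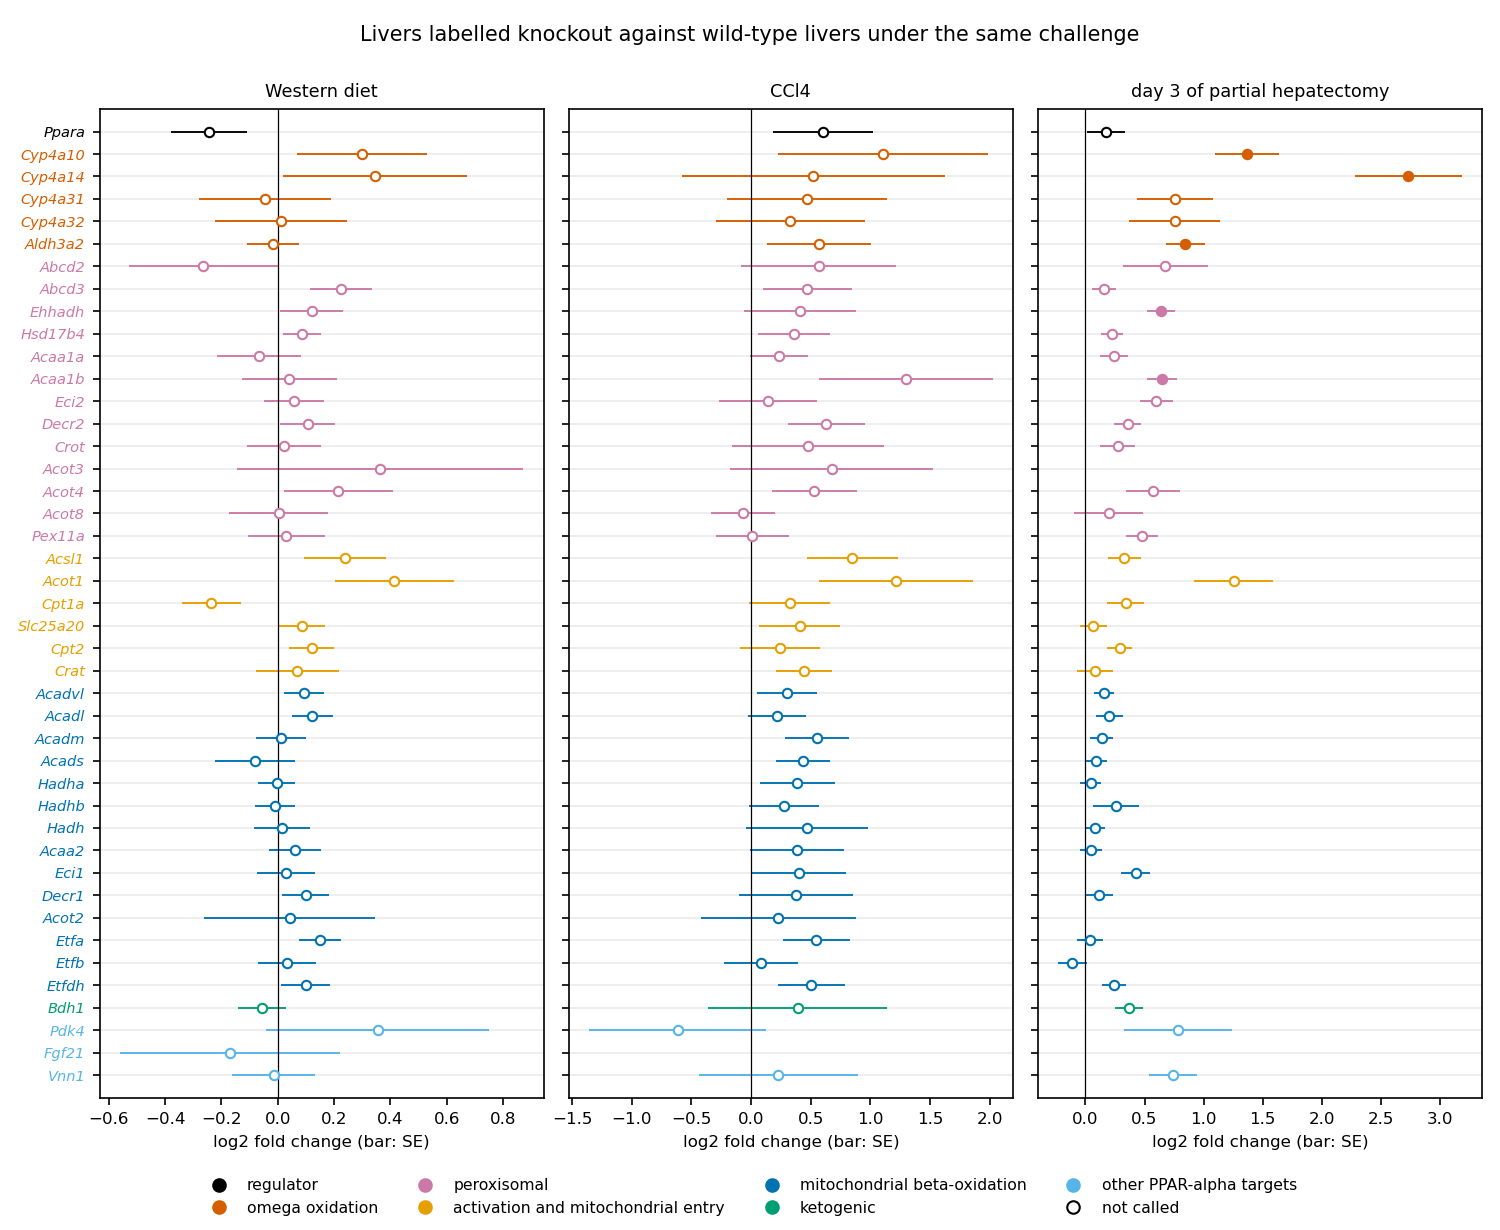
Log2 fold change of each member (x axis, SE as bars) between livers labelled knockout and wild-type livers under the same challenge, in 3 panels with x scales of their own, members grouped by role down the page; filled points passed the test. All filled points are in the hepatectomy panel, at Cyp4a14, Cyp4a10, Aldh3a2, Acaa1b and Ehhadh.

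Whether the label contrast differed between challenges was tested in a joint model of all 53 livers, a test added after the values were seen. The contrast of day 3 minus that of Western diet differed in 0 of 43 members (0.0158% of all genes, 0.00791% in each direction), with 4 at an unadjusted p under 0.05, all positive (4.82% of all genes), and a median difference of 0.31 on the log2 scale. Against the contrast after CCl4, 0 of 43 differed as well (0.0395% of all genes, 0.0316% positive and 0.00791% negative), with 3 at an unadjusted p under 0.05 (9.73% of all genes), a median difference of -0.031 and 24 of 43 negative. For Cyp4a14 the differences were 2.38 (SE 1.01) and 2.20 (SE 1.08), with unadjusted p of 0.022 and 0.048 and edgeR adjusted p of 1.00 and 0.51. No member's contrast was therefore shown to differ between challenges, although calls were made on day 3 alone.

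Wild-type responses did differ between the challenges. The response to CCl4 was more negative than that to hepatectomy in 5 of 43 members and more positive in 0 (11.6%, against 6.09% of all genes, 3.8% more negative and 2.29% more positive), with a median difference of -0.64. They were Cyp4a10 (-2.73, SE 0.82), Acaa1b (-2.71, SE 0.62), Aldh3a2 (-1.68, SE 0.39), Crat (-1.26, SE 0.29) and Acadm (-0.94, SE 0.24), with edgeR adjusted p between 0.0053 and 0.035. The call of Cyp4a10 was lost without CCl4 wild-type liver 5, 7 or 34, olive oil liver 27 or 29, day 3 liver 12 or 16, or any of day 0 livers 12 and 14 to 16. The count was 8 without CCl4 liver 35 labelled knockout and 9 without CCl4 wild-type liver 4 or 5. The response to Western diet was more positive than that to CCl4 in 13 members and more negative in 1 (32.6%, against 16.1% of all genes, 7.72% more positive and 8.37% more negative), with a median difference of 0.61. The largest positive differences were in Acaa1b (3.65, SE 0.58), Aldh3a2 (2.62, SE 0.36) and Ehhadh (1.54, SE 0.37), and the negative one was Cyp4a31 (-2.11, SE 0.61), which was not called without CCl4 wild-type liver 4 or by limma voom. Ppara differed by 1.11 (SE 0.35, edgeR adjusted p = 0.023), a call lost without CCl4 wild-type liver 34 or olive oil liver 24 or 26 and by limma voom. Diet and hepatectomy responses differed in 2 of 43 members (4.65%, against 3.53% of all genes, 1.53% more positive and 2% more negative): Pex11a (0.96, SE 0.28) and Acot4 (-1.25, SE 0.36). They kept their calls in 30 and 29 of 40 alternatives, and both were lost without day 0 liver 14 or 15. Acsl1, lower in wild-type livers under each of the 3 challenges, is the 1 member called in all 3. Of the 40 members tested in all 3, 1 was called in 3 (2.5%), 7 in 2 (17.5%), 18 in 1 (45%) and 14 in none (35%). Of 10706 genes tested in all 3, 5.39% were called in 3, 12.2% in 2, 33% in 1 and 49.4% in none. Members called in none included Ppara, Cpt1a, Cpt2, Hadha, Hadhb, Acadvl, Acadl and Bdh1.

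**Figure D4:**
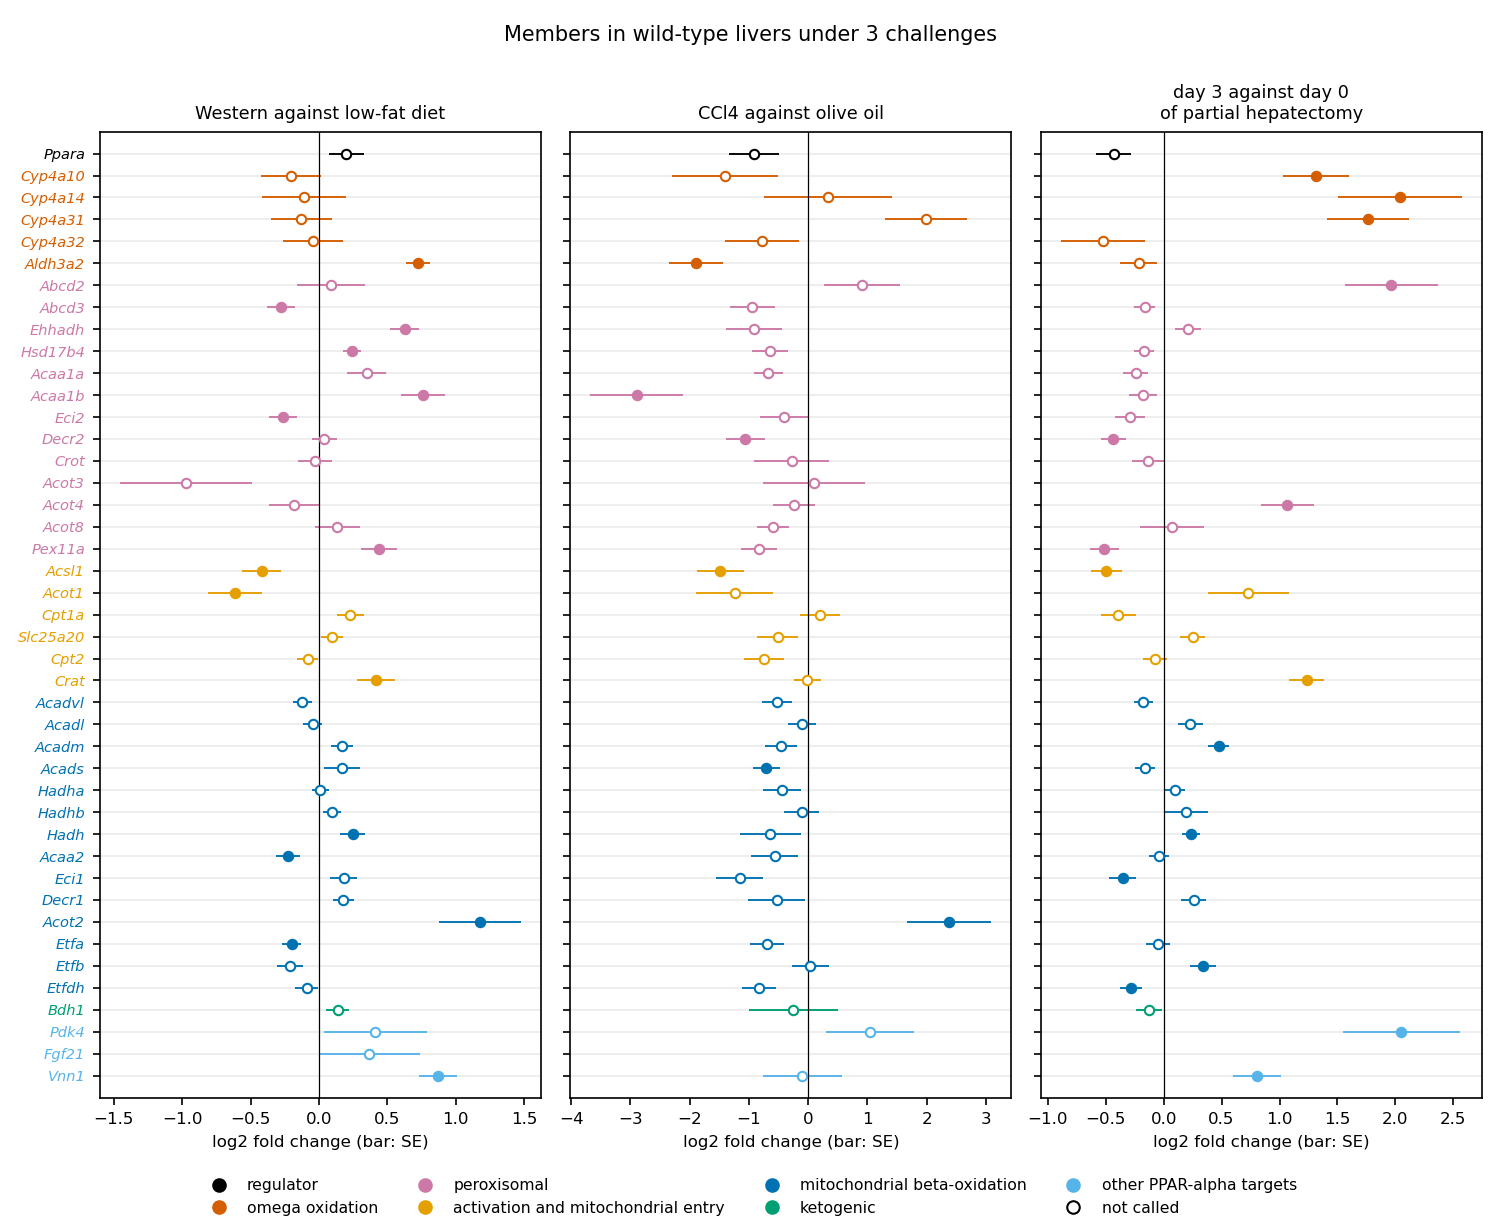
Log2 fold change of each member (x axis, SE as bars) in wild-type livers under Western diet, CCl4 and hepatectomy against their own controls, in 3 panels with x scales of their own, members grouped by role; filled points passed the test. Aldh3a2 is filled on the right in the diet panel and on the left in the CCl4 panel, and Cyp4a10, Cyp4a14 and Cyp4a31 are filled on the right in the hepatectomy panel.

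Medians by role were set side by side. The median log2 fold change of the 5 omega members was 0.85 in livers labelled knockout against wild-type livers on day 3, 1.32 in wild-type livers on day 3 against day 0, -0.77 after CCl4 and -0.11 on Western diet. For mitochondrial beta-oxidation the same medians were 0.12 over 13 members, 0.10 over 13, -0.52 over 14 and 0.05 over 14. Peroxisomal members had 0.42 over 12, -0.17 over 12, -0.65 over 13 and 0.09 over 13, and activation and entry had 0.31, 0.09, -0.63 and 0.01 over 6. Bdh1 had 0.37, -0.13, -0.25 and 0.14 and passed the test in none of these comparisons. Per kilobase of exon, Acaa2 and Acaa1b had the highest levels of the 43 in each control group: 651 and 515 CPM per kb on low-fat diet, 581 and 275 after olive oil and 530 and 167 on day 0. Ppara stood 29th, 30th and 28th in the same order.

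**Figure D5:**
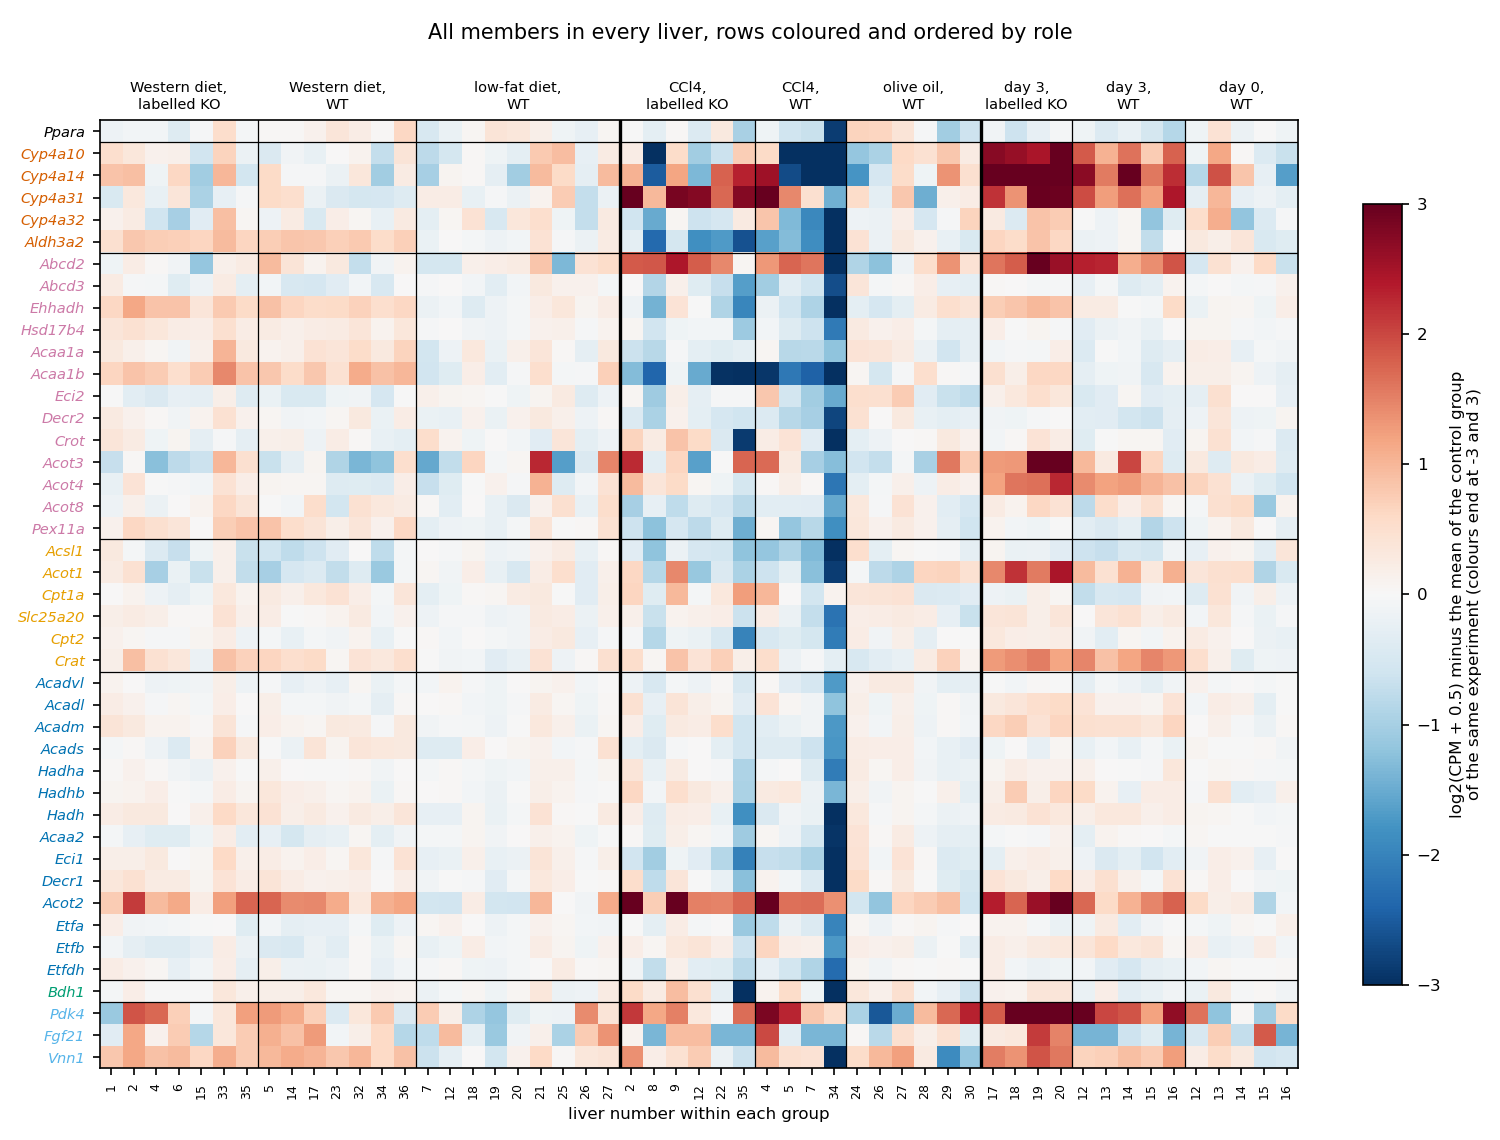
Difference of each member's log2(CPM + 0.5) from the mean of its control group in each of the 53 livers, members grouped by role down the page and livers by experiment and group across it, with colours that end at -3 and 3. Wild-type liver 34 after CCl4 shows as a column of low values, with a median of -2.18, and the livers labelled knockout of day 3 have medians of 0.23 to 0.42.

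Other genes of the same pathways, on lists outside the 43, moved as follows. Of 21 other PPAR-alpha targets tested, 1 was higher in livers labelled knockout than in wild-type livers on day 3 (4.76%): Fabp1, the liver fatty acid binding protein, with 3522 ± 446 CPM (SD, n = 4) and 2161 ± 363 CPM (SD, n = 5) (log2 fold change 0.70, SE 0.14, edgeR adjusted p = 0.044), and 10 of the 21 had an unadjusted p under 0.05, all higher. In the same comparison edgeR called 0 of 17 other peroxisomal oxidation enzymes, 0 of 9 other CYP4 genes, 0 of 15 peroxisome biogenesis genes and 0 of 19 other mitochondrial oxidation enzymes, with 4, 3, 2 and 2 at an unadjusted p under 0.05. In wild-type livers on day 3 against day 0, 0 peroxisomal enzymes were higher and 6 lower, among them Acox3 (-1.21) and Phyh (-0.73), and 1 CYP4 gene was higher and 5 lower, among them Cyp4f13 (-0.80). After CCl4, 0 were higher and 10 of the 17 peroxisomal enzymes lower, including Acox3 (-1.14) and Phyh (-1.605), and of 10 CYP4 genes 1 was higher and 6 lower, including Cyp4a12b (-6.15) and Cyp4a12a (-5.21). Of 19 other mitochondrial oxidation enzymes, 1 was higher and 9 lower on day 3, including Acad10 (-0.76), and 1 was higher and 8 lower after CCl4, including Ivd (-1.09). On Western diet, 4 of 20 were higher and 4 lower. On Western diet, 1 peroxisomal enzyme was higher and 9 lower, among them Hacl1 (-1.14) and Hao1 (-0.76), while of the other PPAR-alpha targets 4 were higher, including Ucp2 (1.45) and Cd36 (1.35), and 1 lower. In wild-type livers, 4 of the 21 other PPAR-alpha targets were higher and 5 lower on day 3 against day 0 (42.9%). After CCl4, 1 of the 21 was higher and 3 lower (19.0%). Their share on Western diet was 23.8%. Wild-type shares of all genes called on day 3, after CCl4 and on Western diet were 17.4%, 20% and 37.4%.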

How the data were processed

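RNA-seq libraries of 53 livers, 1 per liver, were analysed from 3 count tables. The deposited values are whole-number read counts per Ensembl gene that the authors made, with TopHat2 2.0.11, HTSeq and GRCm38 named in the submitters' processing notes. The strand setting and annotation release are not given in the sources used here. Symbols and positions were taken from GENCODE vM21, and promoter windows from RefSeq (GRCm38.p6). In each table, genes passing filterByExpr (13005 in the diet, 11663 in the toxin and 11026 in the surgery experiment) were tested with edgeR 4.0.16 (R 4.3.3), using TMM normalisation and the two-sided quasi-likelihood test with the 3 groups of the experiment in 1 model, and Benjamini-Hochberg adjustment over all genes tested, with a threshold of 0.05. Differences between responses came from a joint model of 9 groups over 36410 shared genes, of which 12646 were tested. The placing of reads that match several genes depends on the authors' counting, which limits the CYP4A, Acaa1 and Acot genes. The procedure was tested on simulated counts. Alternatives were DESeq2 1.42.0, limma 3.58.1 voom, RLE size factors, other filters, 2-group fits, the i5 index as a term, a replicate block, and each library left out. Named members were 15 core genes, the 3 largest called rises and falls of each comparison, and every member called between labels; from other lists at most the 2 smallest p-values were named. Members and lists were chosen with earlier results of these data known, and the contrasts between label differences were added after values were seen. No 2 libraries of the same group agreed within sampling noise (lowest chi-square per degree of freedom 5.0). Limits and floors of 3 counts cover counting error only.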

Additional observations from a re-analysis of the deposited data

Results flagged for a closer look

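In 135 groups of values from the 15 core members, the gap between the highest or lowest liver and its neighbour was set against the range of the group by Dixon's criterion at the 95% level. It was exceeded 11 times, and chance alone exceeds it in about 1 group in 20. After CCl4, wild-type liver 4 stood above the other wild-type livers for Cyp4a14 (829.3 CPM), Cyp4a10 (161 CPM) and Fgf21 (4.57 CPM). On Western diet, liver 33 labelled knockout was highest for Acaa1b (2647 CPM) and Ppara (167 CPM), liver 15 labelled knockout stood apart for Abcd2 (12.8 CPM), and wild-type liver 5 for Ehhadh (924 CPM). On day 3 after hepatectomy, liver 17 labelled knockout was low for Pdk4 (12.7 CPM). On day 0, liver 13 was high for Cyp4a10 (37.8 CPM) and Ppara (62.4 CPM), and after olive oil, liver 24 was high for Acsl1 (1252 CPM).

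Wild-type responses of named members differed between challenges, tested in the joint model of all livers and given as differences of log2 fold changes. CCl4 minus hepatectomy gave -2.73 for Cyp4a10, -2.71 for Acaa1b, -1.68 for Aldh3a2 and -0.94 for Acadm. Western diet minus CCl4 gave 3.65 for Acaa1b, 2.62 for Aldh3a2, 1.54 for Ehhadh, 1.11 for Ppara, 1.07 for Acsl1, 0.64 for Acadm and -2.11 for Cyp4a31, and the calls of Acsl1, Ppara and Acadm were lost without CCl4 wild-type liver 34. That of Acadm was kept in only 28 of 42 alternatives. It was also lost by limma voom and without single livers of the low-fat, Western diet and olive oil groups. Western diet minus hepatectomy gave -1.25 for Acot4 and 0.96 for Pex11a, both of which lost their calls without day 0 liver 14 or 15. Causes of these differences were not tested.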

How the results depend on the processing

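Of 53 calls of named members, 34 held in every alternative run and 19 were lost in at least 1, and none reversed. For wild-type livers after CCl4 against olive oil, 6 called members became 12 without CCl4 livers 34 and 35, 11 with DESeq2, 13 with limma voom and 27 with the i5 index as a term. For livers labelled knockout after CCl4 against olive oil, 3 became 8, 6 with voom and 20 with the index. The difference between the diet and hepatectomy responses covered 2 members, and 8 with voom. With 1 library left out in turn, counts ranged from 3 to 12 and from 1 to 7 in those 2 CCl4 comparisons, from 0 to 5 between labels on day 3, from 13 to 18 in livers labelled knockout and from 12 to 17 in wild-type livers on day 3 against day 0, from 9 to 13 in livers labelled knockout and from 10 to 17 in wild-type livers on Western diet against low-fat diet, from 4 to 9 for CCl4 minus hepatectomy, from 11 to 19 for diet minus CCl4 and from 0 to 3 for diet minus hepatectomy. They stayed at 0 between labels on Western diet and after CCl4 and for both differences of label contrasts. With mouse number as a replicate block, 13 members in place of 16 were called in wild-type livers on day 3 against day 0. Correlations between livers of the same number were -0.039 to 0.105, with 1 of 5 over 0.1. The own number gave the highest correlation in 3 of 5. Such weak values neither show nor exclude that the 2 days share mice. Shares of all genes called in these alternative runs are not given here, so the counts describe the members only. The cause of the shifts in these counts of members was not tested, except that leaving out livers uses fewer samples. Fgf21, Acot2 and Acot3 had too few counts to be tested after hepatectomy.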

Other observations

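Relatives of the members outside the 43 gave some further values in wild-type livers. Slc16a1, a transporter of ketone bodies and lactate, was higher by 1.14 on the log2 scale on day 3 after hepatectomy (SE 0.14) and by 1.38 after CCl4 (SE 0.31), while the ketone dehydrogenase Bdh2 was lower by 0.96 on Western diet (log2 fold change -0.96, SE 0.17). Among regulators, Pparg rose by 1.15 and Hnf4a fell by 0.51 on Western diet, and Rxra, the partner of PPAR-alpha, fell by 0.36 on day 3. Cd36, a fatty acid transporter, rose by 1.46 on day 3 (SE 0.18). The biogenesis gene Pex6 fell by 0.78 on day 3 and by 1.16 after CCl4. All of these passed the edgeR test at the adjusted threshold of 0.05.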
